A study of Mus musculus with 22 samples.

Results

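The transcription factors that define hepatocyte identity were followed as a group of 9 genes, Hnf4a, Nr5a2, Foxa1, Foxa2, Foxa3, Cebpa, Cebpb, Onecut1 and Prox1, in mouse livers with and without Tcf7l2. They were taken by their symbol on the array, which gave 16 probes of the 41174 that are not controls, or 9 of 28034 genes. The liver RNA of 22 mice was hybridised against 1 common mouse reference RNA on 2-colour arrays, with 1 array per mouse, and each value is the log2 ratio of liver over reference, so that a value of 1 is a level 2 times that of the reference. Tcf7l2 encodes TCF4, a DNA-binding partner of beta-catenin in Wnt signalling.

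The adult knockouts were Tcf7l2loxp/loxp mice with SA-CreERT2, a Cre recombinase driven by the serum albumin promoter and active after tamoxifen, called LTCF4KO in the labels. The adult controls were Tcf7l2loxp/loxp mice without Cre, and they received tamoxifen as well. All adults were C57BL/6 mice treated with tamoxifen at 3 weeks of age and killed 1 to 2 months later, after a 24 h fast (4 knockouts and 4 controls) or fed freely (3 knockouts and 3 controls). The newborns were C57BL/6 pups, 4 Tcf7l2-/- and 4 Tcf7l2+/+, which received 50 ul of a 10% glucose solution under the skin and were killed 5 h after birth. The newborn allele is absent from every cell, whereas the adult deletion reaches only cells with an active albumin promoter. The labels describe the mice of a group as biological replicates.

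These factors form a network that keeps hepatocyte genes active. Hnf4a and Nr5a2 are nuclear receptors, the Foxa proteins are forkhead factors that open chromatin, Cebpa and Cebpb are leucine zipper factors, and Onecut1 and Prox1 carry homeodomains. Many of them bind each other's promoters, and several are needed for the liver bud to form or for its cells to become hepatocytes.

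Calls among the members were made between ages and between feeding states, and none passed the test in any of the 3 comparisons of knockouts with their controls, where 1.41% of all genes passed in newborns, 0.467% in fasted adults and 0.216% in fed adults. In fasted adult controls 7 of the 8 members without Foxa1 were higher than in newborn wild types, where 26.1% of all genes were higher. Foxa1 was well above background on 1 of 4 newborn wild-type arrays. When local backgrounds marked as outliers were kept, 1 of 9 members was called, where 29.7% of all genes were. The directions of Hnf4a, Foxa2 and Cebpa turned when the arrays were scaled to a common spread. Between fasted and fed controls, which lay on separate slides, 4 of 9 members passed, where 36.8% of all genes did: Foxa3, Cebpb, Prox1 and Cebpa. The directions of Prox1 and Cebpa turned in other settings. Cebpb did not pass in the liver channel alone, at 0.43, and its other probe averaged 1.13 in fasted and 1.19 in fed controls.

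Promoters are shown for the 4 members with a window that holds a motif match and for Foxa3, the member with the largest fasting difference, as the 250 bases before the RefSeq transcription start (assembly GRCm38.p6, read 5′ to 3′ along the gene). RefSeq gave 14 such windows for the 9 genes. Each was searched on both strands for 6 short motifs of the members and of Tcf7l2: TGTTTAC for forkhead factors, TTGCNNAA for C/EBP, CAAAGTC for HNF4, ATCAATA for ONECUT, CAAGGTCA for NR5A and CTTTGAA for TCF. Capitals mark a match, and no matches overlapped in these windows:
Hnf4a, chr2:163506607-163506856, plus strand: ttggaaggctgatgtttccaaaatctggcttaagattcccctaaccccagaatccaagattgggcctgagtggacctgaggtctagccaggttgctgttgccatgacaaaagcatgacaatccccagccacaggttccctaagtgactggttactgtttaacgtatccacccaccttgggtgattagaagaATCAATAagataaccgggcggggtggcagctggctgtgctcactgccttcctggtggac
Nr5a2, chr1:136953631-136953880, minus strand: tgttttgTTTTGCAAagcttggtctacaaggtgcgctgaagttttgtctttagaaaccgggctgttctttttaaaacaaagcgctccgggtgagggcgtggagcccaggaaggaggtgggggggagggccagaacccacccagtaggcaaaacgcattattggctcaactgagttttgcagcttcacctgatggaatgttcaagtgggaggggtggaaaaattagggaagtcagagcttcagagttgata
Foxa1, chr12:57546112-57546361, minus strand: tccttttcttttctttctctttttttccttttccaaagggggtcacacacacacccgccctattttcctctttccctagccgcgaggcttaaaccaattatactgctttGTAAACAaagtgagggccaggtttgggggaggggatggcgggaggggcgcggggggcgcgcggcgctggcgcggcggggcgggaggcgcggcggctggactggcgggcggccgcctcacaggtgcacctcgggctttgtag
Foxa2, chr2:148046970-148047219, minus strand: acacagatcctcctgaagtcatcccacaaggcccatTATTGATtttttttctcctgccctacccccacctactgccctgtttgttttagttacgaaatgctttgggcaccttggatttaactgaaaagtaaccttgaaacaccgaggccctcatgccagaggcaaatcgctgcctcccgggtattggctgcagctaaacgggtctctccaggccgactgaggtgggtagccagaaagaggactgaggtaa
Foxa3, chr7:19023540-19023789, minus strand: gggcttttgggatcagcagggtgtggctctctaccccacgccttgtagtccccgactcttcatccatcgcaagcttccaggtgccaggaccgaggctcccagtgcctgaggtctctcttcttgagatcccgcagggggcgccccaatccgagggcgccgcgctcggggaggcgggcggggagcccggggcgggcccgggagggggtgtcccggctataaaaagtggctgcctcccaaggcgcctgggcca

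The ONECUT letters lay 59 bases before the upstream start of Hnf4a and 214 bases before the upstream start of Foxa2. The forkhead letters lay 141 bases before the start of Foxa1, itself a forkhead gene. The C/EBP letters lay 243 bases before 1 start of Nr5a2. Over 32851 RefSeq windows of the same length the ONECUT letters occurred in 1.86%, the forkhead letters in 3.17% and the C/EBP letters in 9.56%. The HNF4, NR5A and TCF letters were in none of the 14 windows, against 3.84%, 1.33% and 4.46% of all windows. A match is a run of letters and not a binding site, and the absence of one says nothing of a factor.

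The arrays differed in sensitivity. The share of liver spots that stood clear of background was 50.2% to 62.0% in fasted adults, 22.8% to 31.2% in fed adults and 50.2% to 64.4% in newborns. Fasted, fed and newborn arrays lay on separate slides, so feeding state and age cannot be told apart from slide. The newborn knockouts lay on 1 slide and the newborn wild types on another, so newborn genotype cannot be told apart from slide. The adult slides held both genotypes. In the reference channel, which carried the same RNA on every array, 14.3% of genes were called between newborn knockouts and wild types. Between adult knockouts and controls 0.0408% were called in fasted and 0.00584% in fed adults. All 26 measured hepatocyte products, such as albumin and transthyretin, were well above background on every array. Newborn wild type 1 and newborn knockouts 1 and 4 lay apart from the other 5 newborn arrays on the first principal component of the newborns. In fasted knockouts 2 and 3 the 12 exocrine pancreas markers averaged 5.28 and 5.18, against at most 1.13 on any other array.

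Tcf7l2 itself was read at mm9 chromosome 19 by 3 probes, of which the brightest gave -1.85, -1.57, -1.58 and -1.63 in newborn knockouts, against -1.28, -0.83, -0.70 and -0.32 in newborn wild types. The ranges were separate and the difference was -0.87 ± 0.19 (SE), with a limma adjusted p of 0.0612 over all probes. A second probe, well above background on all 8 newborn arrays, averaged 0.02 ± 0.12 in knockouts and -0.06 ± 0.17 in wild types (SD, n = 4 each), a difference of 0.08 ± 0.12 (SE, limma adjusted p 0.861). The third was not well above background in newborns. In adults the brightest probe averaged 0.32 ± 0.36 in fasted knockouts and -0.03 ± 0.11 in fasted controls (SD, n = 4 each), and -0.15 ± 0.18 in fed knockouts and -0.36 ± 0.29 in fed controls (SD, n = 3 each). The labels do not say which exons the adult mice lose, so these probes do not check the adult genotype.

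**Figure D1:**
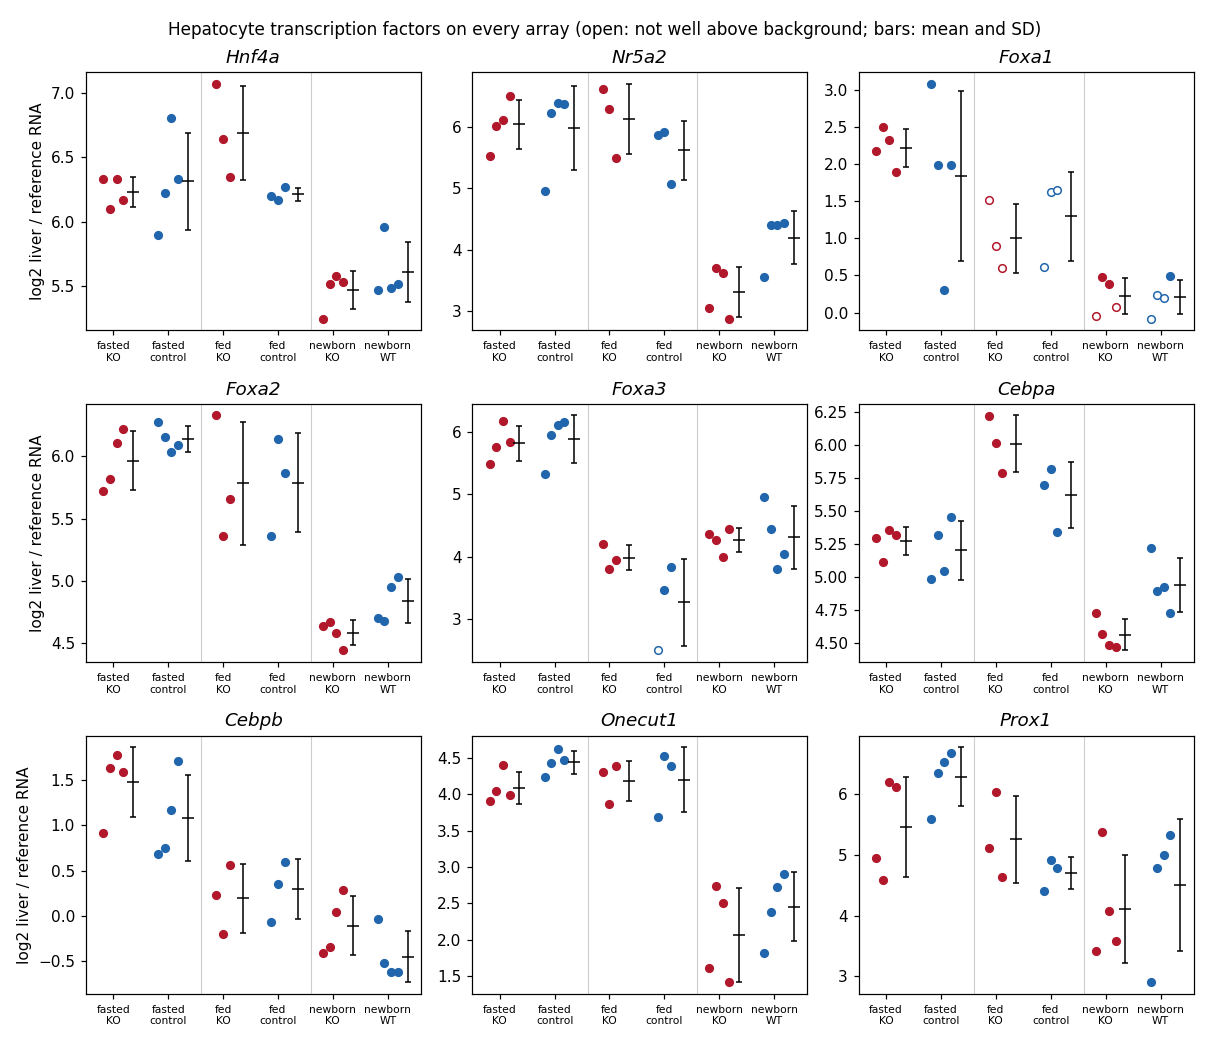
Each panel is 1 factor, each point 1 array, and the vertical axis the log2 ratio of liver over reference for the brightest probe; red is knockout, blue is control or wild type, open points are not well above background, and bars give the mean and SD. The 8 newborn arrays lie below all 14 adult arrays for Foxa2, and Foxa3 stands apart in the fasted adults.

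Hnf4a, the nuclear receptor that drives a large share of hepatocyte genes, was read at mm9 chromosome 2 (163398074 to 163398133). It gave 6.33, 6.10, 6.33 and 6.17 in fasted knockouts, against 5.90, 6.22, 6.80 and 6.33 in fasted controls. In fed adults it gave 7.07, 6.64 and 6.35 in knockouts, against 6.20, 6.17 and 6.27 in controls. In newborns it gave 5.25, 5.52, 5.58 and 5.53 in knockouts, against 5.47, 5.96, 5.49 and 5.52 in wild types. The fed knockouts were all above the fed controls, whereas the other pairs of groups overlapped.

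Nr5a2, which controls bile acid and cholesterol genes, was read at mm9 chromosome 1 (138740903 to 138740962). It gave 5.53, 6.02, 6.12 and 6.50 in fasted knockouts, against 4.96, 6.22, 6.39 and 6.37 in fasted controls, and 6.61, 6.29 and 5.50 in fed knockouts, against 5.87, 5.92 and 5.07 in fed controls. In newborns it gave 3.05, 3.70, 3.63 and 2.88 in knockouts, against 3.55, 4.40, 4.40 and 4.44 in wild types. Wild type 1 was within the range of the newborn knockouts and the other 3 wild types were above all 4 of them.

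Foxa2, needed with Foxa1 for the liver to be specified, was read at mm9 chromosome 2 (147868698 to 147868757) by 10 spots per array, whose SD within an array was at most 0.17. It gave 5.72, 5.82, 6.11 and 6.22 in fasted knockouts, against 6.28, 6.16, 6.04 and 6.09 in fasted controls, and 6.33, 5.36 and 5.66 in fed knockouts, against 5.36, 6.14 and 5.87 in fed controls. Newborns had 4.64, 4.67, 4.58 and 4.44 in knockouts, against 4.70, 4.68, 4.95 and 5.03 in wild types. The newborn ranges met without overlapping, with 4.67 the highest knockout and 4.68 the lowest wild type.

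Foxa3, the forkhead factor of the liver with targets in glucose metabolism, was read at mm9 chromosome 7 (19599053 to 19599112). It gave 5.49, 5.76, 6.17 and 5.83 in fasted knockouts, against 5.32, 5.94, 6.10 and 6.15 in fasted controls. In fed adults it gave 4.21, 3.81 and 3.94 in knockouts, against 2.50, 3.47 and 3.84 in controls, of which the lowest was not well above background. Among newborns Foxa3 gave 4.36, 4.26, 4.00 and 4.45 in knockouts, against 4.95, 4.45, 3.80 and 4.04 in wild types. All fasted arrays were above all fed and newborn arrays.

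Foxa1, read at mm9 chromosome 12 (58641996 to 58642055), was the dimmest member. It gave 2.17, 2.49, 2.32 and 1.89 in fasted knockouts, against 3.08, 1.99, 0.30 and 1.98 in fasted controls. It was not well above background on any of the 6 fed arrays, on 2 of 4 newborn knockout arrays or on 3 of 4 newborn wild-type arrays. It therefore entered no newborn test, and it entered the adult tests through its fasted values.

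Cebpa, which holds hepatocytes out of the cell cycle and activates metabolic genes, was read at mm9 chromosome 7 (35906517 to 35906576). It gave 5.30, 5.12, 5.36 and 5.32 in fasted knockouts, against 4.99, 5.32, 5.05 and 5.46 in fasted controls, and 6.22, 6.02 and 5.79 in fed knockouts, against 5.70, 5.82 and 5.34 in fed controls. In newborns it gave 4.73, 4.57, 4.49 and 4.47 in knockouts, against 5.22, 4.90, 4.93 and 4.73 in wild types. The newborn ranges met at 4.73 without overlapping, and in fed adults 1 control, at 5.82, lay above the lowest knockout.

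Cebpb, an inducible factor of the acute phase response and of gluconeogenesis, was read at mm9 chromosome 2 (167515847 to 167515905). It gave 0.91, 1.63, 1.77 and 1.59 in fasted knockouts, against 0.68, 0.75, 1.17 and 1.71 in fasted controls, and 0.23, -0.20 and 0.56 in fed knockouts, against -0.06, 0.35 and 0.60 in fed controls. The newborn values were -0.41, -0.34, 0.04 and 0.29 in knockouts, against -0.03, -0.52, -0.62 and -0.62 in wild types. Every fasted value was above every fed and newborn value.

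Onecut1, also called HNF-6 and known for its part in bile duct and hepatocyte differentiation, was read at mm9 chromosome 9 (74737272 to 74737331). It gave 3.91, 4.04, 4.40 and 3.99 in fasted knockouts, against 4.23, 4.42, 4.62 and 4.47 in fasted controls, and 4.30, 3.87 and 4.38 in fed knockouts, against 3.69, 4.52 and 4.38 in fed controls. Newborn Onecut1 values were 1.62, 2.74, 2.50 and 1.42 in knockouts, against 1.82, 2.38, 2.72 and 2.90 in wild types. All adult arrays were above all newborn arrays.

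Prox1, a homeodomain factor of hepatoblasts that also marks lymphatic endothelium, was read at mm9 chromosome 1 (191942646 to 191942705). It gave 4.94, 4.58, 6.20 and 6.12 in fasted knockouts, against 5.59, 6.35, 6.53 and 6.68 in fasted controls, and 5.11, 6.04 and 4.63 in fed knockouts, against 4.41, 4.92 and 4.79 in fed controls. In newborns it gave 3.41, 5.37, 4.08 and 3.58 in knockouts, against 2.90, 4.79, 5.00 and 5.32 in wild types. It had the widest spread within groups among the members in newborns, with an SD of 0.89 in knockouts and 1.09 in wild types.

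Newborn wild type 1 and knockouts 1 and 4, the arrays that lay apart, held low values of 3 members. Their Nr5a2 values were 3.55, 3.05 and 2.88, their Onecut1 values 1.82, 1.62 and 1.42, and their Prox1 values 2.90, 3.41 and 3.58, each below the other newborn arrays of the same genotype. The part of these arrays in the genotype comparison is given by the values without them.

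In newborns the loss of Tcf7l2, which cannot be told apart from slide, was set against wild type in 8 members. None passed the test (0 of 8, where 1.41% of the 17128 genes tested were called). At an unadjusted p under 0.05 there were 2 members, Nr5a2 and Cebpa, and 13.3% of all genes. Nr5a2 had the largest difference, averaging 3.31 ± 0.41 in knockouts and 4.2 ± 0.43 in wild types (SD, n = 4 each), which is -0.88 ± 0.25 (SE), 1.85-fold lower. Its limma adjusted p was 0.131, with an unadjusted p of 0.00614, and the 95% interval of the difference ran between -1.45 and -0.32. Over 21 other settings it was below 0 in each and passed in 5, with adjusted p between 0.00759 and 1. Without newborn wild type 1 the difference was -1.10 (adjusted p 0.0352), and without all 3 arrays that lay apart it was -0.75 (adjusted p 0.0431).

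Cebpa averaged 4.56 ± 0.12 in newborn knockouts and 4.95 ± 0.20 in newborn wild types (SD, n = 4 each). The difference was -0.38 ± 0.13 (SE) with a limma adjusted p of 0.202 and an interval between -0.67 and -0.10. Its other probe differed by -0.68 ± 0.14, with separate ranges and a limma adjusted p of 0.0541 over all probes. Foxa2 differed by -0.26 ± 0.12 (SE), with a limma adjusted p of 0.398. Separate ranges were seen for 2 of 8 members, Cebpa and Foxa2, and for 9.45% of all genes. Hnf4a, Foxa3, Onecut1 and Prox1 differed by -0.14, -0.04, -0.38 and -0.39, and Cebpb by 0.34, all with adjusted p of at least 0.51. By their brightest probes 7 of the 8 members were below 0, with a median of -0.32 against -0.01 over all genes. In other settings Hnf4a and Foxa3 reached 0.11 and 0.34. The second Onecut1 probe averaged 4.06 in both genotypes. The dimmer Hnf4a probes averaged 1.56 and 1.14 in knockouts, against 1.37 and 1.49 in wild types. Those of Prox1 averaged 0.49 and 0.74, against 0.77 and 0.87, and that of Cebpb 0.24, against -0.12. The 10 endothelial markers tested had a median of -0.46 and the 14 macrophage markers one of -0.52 in the same comparison, with 0 and 1 called, and with array means over the macrophage list between 2.85 and 3.33 in knockouts and between 3.49 and 3.62 in wild types. Whether the members' values are tied to these cell types was not tested.

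In fasted adults no member passed between knockouts and controls (0 of 9, where 0.467% of 17137 genes were called), and none did at an unadjusted p under 0.05, where 11.2% of genes did. Prox1 was -0.83 ± 0.39 (SE, 1.78-fold lower) with a limma adjusted p of 0.459, and its interval ran between -1.68 and 0.02. Fasted knockouts 1 and 2 gave its low values. On their slide, shared with controls 1 and 2, the difference was -1.21, and on the slide of arrays 3 and 4 it was -0.45. With slide as a block it was -0.83, with an adjusted p of 0.234. A second Prox1 probe differed by -1.10 ± 0.31, with separate ranges and a limma adjusted p of 0.2 over all probes. The third Prox1 probe averaged 1.16 in fasted knockouts and 1.32 in fasted controls, and its ranges overlapped. It was well above background on 4 knockout and 3 control arrays. Onecut1 was at -0.35 ± 0.18 and Cebpb at 0.40 ± 0.26, with adjusted p of 0.524 and 0.631. Hnf4a, Foxa3, Cebpa and Nr5a2 lay between -0.08 and 0.07, Foxa2 at -0.18 and Foxa1 at 0.38. Over 24 other settings Prox1 lay between -1.21 and 1.68 and passed in none. Without fasted knockouts 2 and 3, which held the pancreas markers, the count of members called was again 0, with Prox1 at -0.76 and Onecut1 at -0.48. Onecut1 gave 4.04 and 4.40 in these knockouts, above the 3.91 and 3.99 of knockouts 1 and 4, whereas Nr5a2, at 6.02 and 6.12, lay between the 5.53 and 6.50 of those. Prox1, at 4.58 and 6.20, lay below and above the 4.94 and 6.12 of those. The part of pancreas RNA in the members' values was not tested beyond this.

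In fed adults no member passed either (0 of 9, where 0.216% of 17137 genes were called), and 3 did at an unadjusted p under 0.05, where 7.15% of genes did. Foxa3 was 0.71 ± 0.31, Hnf4a 0.47 ± 0.21 and Cebpa 0.39 ± 0.16 above the controls (log2 differences, SE), with limma adjusted p of 0.653, 0.667 and 0.633. Their intervals began at 0.05, 0.02 and 0.03, and all 3 stayed above 0 in every other setting, but in the liver channel alone they were smaller, at 0.26 for Foxa3, 0.05 for Hnf4a and 0.22 for Cebpa. With slide as a block the differences were 0.90, 0.39 and 0.31. Within the slide of controls 2 and 3 and knockout 3 they were 0.28, 0.13 and 0.21, and within the slide of control 1 and knockouts 1 and 2 Hnf4a and Cebpa were 0.65 and 0.42. Foxa3 was left out of the latter slide, since its value in fed control 1, at 2.50, was not well above background. The Foxa3 differences of 0.71 and 0.90 include that array. The second Cebpa probe differed by 0.73 ± 0.19, again with separate ranges, and its limma adjusted p was 0.258 over all probes. Without Foxa1, which was not well above background on any fed array, 5 of 8 members were above 0, with a median of 0.43 against 0.02 over all genes. In the same comparison 25 of 26 hepatocyte products and all 14 macrophage markers were above 0, with medians of 0.33 and 0.52 and none called.

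Whether the knockout difference differed between adults and newborns was tested in 1 model over all 22 arrays. The newborn genotypes lay on separate slides, and the type of deletion differs between the ages. Age cannot be told apart from either. In the reference channel 6.19% of genes were called for fasted adults against newborns and 12.6% for fed adults against newborns. No member passed for fasted adults against newborns (0 of 9, where 1.03% of 18873 genes were called) or for fed adults against newborns (0 of 9, where 0.917% were called). At an unadjusted p under 0.05 there were 1 and 3 members, against 11.1% and 10.8% of genes. Cebpa came nearest: its knockout difference was higher in fed adults than in newborns by 0.77 ± 0.21 (SE), with a limma adjusted p of 0.102 and an interval between 0.33 and 1.21. It passed without fed knockout 3 (0.88, adjusted p 0.0429) and with array weights (0.80, adjusted p 0.0454), and over 28 other settings its adjusted p lay between 0.0429 and 1. The second Cebpa probe passed when every probe was tested, at 1.42 ± 0.24 with a limma adjusted p of 0.00439. It averaged 4.08 ± 0.41 in fed knockouts and 3.34 ± 0.15 in fed controls (SD, n = 3 each), and 2.21 ± 0.23 in newborn knockouts and 2.89 ± 0.15 in newborn wild types (SD, n = 4 each). For Nr5a2 the difference between fed adults and newborns was 1.4 ± 0.50, with a limma adjusted p of 0.244.

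Of the other liver transcription factors on the array, none of 38 passed in newborns or of 39 in fed adults, and 1 of 39 was lower in fasted adults. That gene was Tbx3, a T-box factor of the Wnt pathway, which averaged -1.26 in fasted knockouts and 2.50 in fasted controls, a difference of -3.77 ± 0.42 (13.6-fold lower, limma adjusted p 0.000555). It did not pass in fed adults, where it averaged -0.83 in knockouts and 1.61 in controls (-2.44 ± 0.48, limma adjusted p 0.0769), or in newborns, where it averaged -1.61 in knockouts and -0.68 in wild types (-0.93 ± 0.39, limma adjusted p 0.333). It was well above background in 1 of 3 fed knockouts.

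Fasting was compared with feeding within each genotype. In controls 4 of 9 members passed, where 36.8% of 17137 genes were called, and in knockouts 3 of 9 passed, where 35.7% were called. Foxa3 was 2.61 ± 0.29 higher (SE, 6.09-fold) in fasted controls than in fed controls, with a limma adjusted p of 4.17e-05, and 1.83 ± 0.29 higher (3.55-fold) in fasted knockouts than in fed knockouts, with a limma adjusted p of 0.000459. It passed in 19 of 20 other settings in controls and in 19 of 21 in knockouts. With the outlying local backgrounds kept, its difference in controls was 0.54 (adjusted p 0.714), and in knockouts it did not pass with these backgrounds, at 1.97, or with the deposited log ratio, at 0.90. The reference channel of Foxa3 carried the same RNA on every array. It was 1.35 higher on fasted than on fed control arrays and 0.97 higher on fasted than on fed knockout arrays. Over all genes its median absolute difference was 0.43 and 0.40. In the liver channel alone Foxa3 was 1.91 and 1.41 higher.

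Cebpb was higher in fasted controls by 0.78 ± 0.28 (SE, 1.72-fold, limma adjusted p 0.043) and in fasted knockouts by 1.28 ± 0.28 (2.42-fold, limma adjusted p 0.0038). Its other probe gave -0.06 ± 0.27 in controls and 0.24 ± 0.27 in knockouts. The brightest probe did not pass in controls without fasted control 3 or 4 or without fed control 1 or 2, at 0.75, 0.57, 0.61 and 0.81. Prox1 was higher in fasted controls by 1.58 ± 0.42 (SE, 3.00-fold, limma adjusted p 0.011) but not in knockouts, at 0.20 ± 0.42 (limma adjusted p 0.744). The difference between these fasting changes was -1.39 ± 0.60 with a limma adjusted p of 0.738, so a difference between the genotypes was not shown. In controls its direction turned to -0.90 with the outlying local backgrounds kept. In the liver channel alone neither Cebpb, at 0.43, nor Prox1, at 0.60, passed in controls.

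Cebpa was the member called lower with fasting, by -0.42 ± 0.15 in controls (SE, 1.34-fold, limma adjusted p 0.0467) and by -0.74 ± 0.15 in knockouts (1.67-fold, limma adjusted p 0.00275). Its direction turned to 1.23 and 0.95 when the liver channel was read alone, to 0.39 and 0.37 when the arrays were scaled to a common spread, and in controls to 0.01 with median centring. The second Cebpa probe was higher in fasted controls, by 1.22 ± 0.18 (limma adjusted p 0.00024 over all probes). The call in controls was lost without fasted control 1, 2 or 3 or fed control 1 or 2, at values between -0.46 and -0.32. The reference channel of the brightest Cebpa probe was 1.57 higher on fasted control arrays than on fed control arrays, although it carried the same RNA. For Hnf4a, at 0.10 ± 0.19 in controls, the reference channel differed by 1.74 and the liver channel alone by 1.08. Over all genes the median absolute difference of the reference channel was 0.43.

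**Figure D2:**
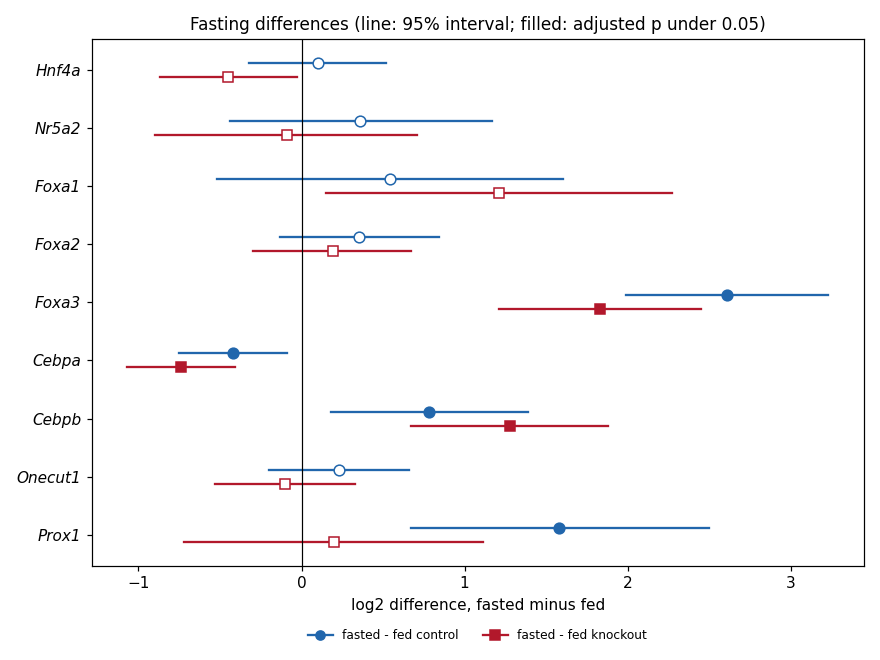
The log2 difference of fasted minus fed is drawn for each factor in controls (circles) and in knockouts (squares), with its 95% interval; filled symbols passed an adjusted p of 0.05. Foxa3 lies furthest to the right in both genotypes, and Cebpa lies left of 0 in both.

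Hnf4a, Nr5a2, Foxa2 and Onecut1 did not pass with fasting in either genotype. Their intervals in controls ran between -0.32 and 0.52 for Hnf4a, -0.44 and 1.17 for Nr5a2, -0.13 and 0.84 for Foxa2 and -0.20 and 0.66 for Onecut1. Foxa1 was not well above background in fed livers and entered these tests through its fasted values. It did not pass in knockouts (limma adjusted p 0.0701) or in controls (limma adjusted p 0.412). Its values ran from 0.30 to 3.08 in fasted controls and from 0.61 to 1.65 in fed controls. In the liver channel alone its difference in controls was -0.12. The dimmer probes of Hnf4a were at least 1.48-fold and 1.83-fold higher in fasted than in fed controls, with limma adjusted p of 0.0034 and 0.00162 over all probes. No member's fasting change differed between genotypes (0 of 9), and no gene of 17137 did. At an unadjusted p under 0.05 there were 1135 such genes, or 6.62%, among them 1 member. In controls 6 of 39 other liver transcription factors were higher and 8 lower with fasting: Srebf1, the lipogenic factor, was -2.52 ± 0.26 (limma adjusted p 2.91e-05) and Nfia 1.28 ± 0.15 (limma adjusted p 6.95e-05). Of the 26 hepatocyte products 2 were higher and 19 lower. Of 13 endothelial markers 8 were higher and 1 lower, with a median of 1.13 and array means of 2.76 to 3.15 in fasted controls and 1.83 to 2.04 in fed controls, where 6 were well above background on no array. Of 14 macrophage markers 7 were higher and none lower, with a median of 0.63 and array means of 3.00 to 3.72 in fasted controls and 2.49 to 2.84 in fed controls. The part of these cells in the fasting differences of the members, such as Prox1, was not tested.

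Adult and newborn livers were compared through the common reference, in animals that also differed in feeding, glucose injection, tamoxifen, slide and allele. In fasted controls against newborn wild types 8 of 9 members were higher and none lower, where 55.7% of 18873 genes were called, 26.1% higher and 29.6% lower. Foxa1 is among the 8, and it was well above background on all 4 fasted control arrays but on 1 of 4 newborn wild-type arrays. Without it 7 of 8 members were higher, with a median of 1.55 against -0.01 over all genes. Onecut1 was 1.98 ± 0.27 higher (SE, 3.94-fold, limma adjusted p 2.56e-06), Nr5a2 1.79 ± 0.33 (3.45-fold, limma adjusted p 9.02e-05) and Prox1 1.79 ± 0.50 (3.45-fold, limma adjusted p 0.00458). Foxa3, Cebpb and Foxa2 were 1.57, 1.53 and 1.30 higher, and Hnf4a 0.70 higher, with limma adjusted p of at most 0.00139. Foxa3 did not pass with the deposited log ratio, at 0.05, with arrays scaled to a common spread, at 0.16, or with outlying backgrounds kept, at 0.27. With these backgrounds kept Cebpb was the only member that passed, and Nr5a2 and Prox1 were at 0.24 and 0.07. Cebpa was at 0.26 ± 0.14 (limma adjusted p 0.121), and without newborn wild type 1 it passed at 0.35 (adjusted p 0.041). Its second probe was 1.67 ± 0.16 higher, with separate ranges and a limma adjusted p of 1.41e-08 over all probes. The ranges were separate for 6 of the 8 members without Foxa1, against 51.1% of genes.

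In fed controls against newborn wild types 6 of the 8 members without Foxa1 were higher and 1 lower, where 57.8% of genes were called, 25.4% higher and 32.4% lower. Onecut1 was 1.74 ± 0.29 higher (SE, 3.35-fold, limma adjusted p 3.38e-05) and Nr5a2 1.42 ± 0.35 (2.68-fold, limma adjusted p 0.00177). Foxa2, Cebpb, Cebpa and Hnf4a were 0.95, 0.74, 0.68 and 0.60 higher, with limma adjusted p of at most 0.0204. Foxa1 also passed this test, but it was well above background on none of the fed and on 1 of 4 newborn arrays, so no difference is given for it. Cebpb did not pass without fed control 2 or 3, at 0.72 and 0.59. Foxa3 was the member that was lower, by -1.04 ± 0.28 (2.05-fold, limma adjusted p 0.00401), and without fed control 1, whose value was not well above background, it was at -0.65 (adjusted p 0.0515). Prox1 was at 0.20 ± 0.54 (limma adjusted p 0.765).

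The age directions depended on the scaling of the arrays. The log ratios of all probes had a median absolute deviation of 0.46 to 0.57 on fasted arrays, 0.56 to 0.72 on fed arrays and 0.38 to 0.49 on newborn arrays. When every array was scaled to the same deviation, the direction in fasted adults turned to -0.23 for Foxa2, to -1.05 for Hnf4a and to -1.27 for Cebpa, and in fed adults to -1.38 for Foxa2, to -2.0 for Hnf4a, to -1.66 for Cebpa, to -1.79 for Prox1 and to -0.69 for Nr5a2. Hnf4a also turned to -0.13 in fasted adults with the deposited log ratio, and Cebpa to 0.00 in fed adults with median centring. Onecut1 and Cebpb stayed above 0 in every setting of both age comparisons, between 0.34 and 2.37 and between 0.15 and 1.76. Cebpb passed in all 22 other settings for fasted adults and in 17 of 21 for fed adults. In the liver channel alone all 9 members were higher in fasted adults, by 1.22 to 2.09 with adjusted p of at most 0.0128. In fed adults Foxa3, Cebpa and Prox1 did not pass in that channel, at -0.02, 0.07 and 0.80. The reference channel, which carried the same RNA on every array, was itself 1.46 higher for Hnf4a, 1.23 for Foxa3 and 1.05 for Cebpa on fasted control arrays than on newborn wild-type arrays, against a median absolute difference of 0.28 over all genes.

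**Figure D3:**
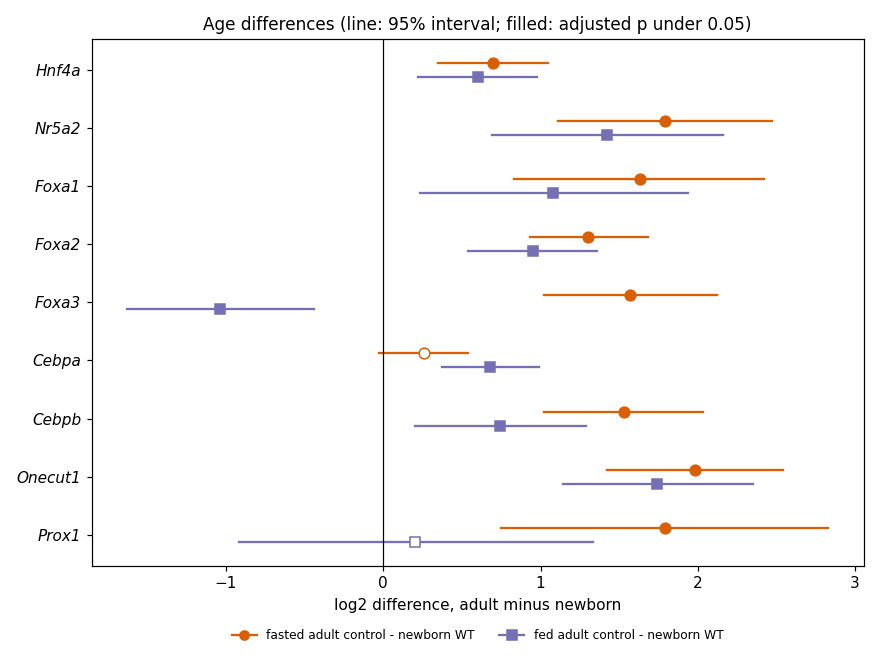
The log2 difference of adult controls minus newborn wild types is drawn for each factor with fasted adults (circles) and fed adults (squares), with its 95% interval; filled symbols passed an adjusted p of 0.05. All circles except that of Cebpa are filled to the right of 0, Foxa1 was well above background on 1 newborn wild-type array and no fed array, and Foxa3 and Prox1 are the members whose squares lie furthest left of their circles.

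Most blood cell genes were lower in the adults. The 15 erythroid markers averaged 0.42 to 0.65 in fasted controls and 5.11 to 5.56 in newborn wild types, and all 15 were called lower in fasted controls. The 12 neutrophil markers averaged 0.45 to 0.69 in fasted controls and 5.15 to 5.71 in newborn wild types, and all 12 were called lower. In fed controls 14 of the 15 erythroid and all 12 neutrophil markers were called lower than in newborn wild types. The erythroid marker Alas2 was called higher there, by 0.29 ± 0.12 (limma adjusted p 0.0413). In bulk RNA, fewer cells of a type and less RNA per cell cannot be told apart, and the part of the blood cells in the members' differences was not tested. Of 14 fetal liver genes, such as Afp, all were lower in both adult groups. Among 39 other liver transcription factors, 27 were higher and 2 lower in fasted controls than in newborn wild types, with a median of 0.61, and 25 were higher and 1 lower in fed controls, with a median of 0.78. Nr1i3, the drug-sensing receptor CAR, was 1.76 ± 0.15 higher in fasted controls (limma adjusted p 2.91e-09). Of 26 hepatocyte products, 7 were higher and 12 lower in fasted controls and 20 were higher and 1 lower in fed controls, the urea cycle enzyme Otc by 2.98 ± 0.23 and 2.67 ± 0.25 (limma adjusted p 6.77e-10 and 1.32e-08).

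Of the 9 members, 5 had more than 1 probe, and these did not always give the same account. Onecut1 had a second probe, designed on a cDNA other than the RefSeq transcript, at mm9 chromosome 9 (74700239 to 74700298). It averaged 3.61 ± 1.29 in fasted controls (SD, n = 4), 1.51 ± 0.34 in fed controls (SD, n = 3) and 4.06 ± 0.17 in newborn wild types (SD, n = 4). In fed controls, where it was not well above background, it was at least 5.83-fold lower than in newborn wild types (limma adjusted p 0.000176 over all probes), whereas the RefSeq probe was 3.35-fold higher. In fasted controls it was at -0.44 ± 0.45 against newborn wild types (limma adjusted p 0.428). The probes of Cebpa were 0.68 and 0.45 higher in fed controls than in newborn wild types, and 0.26 and 1.67 higher in fasted controls. The 3 Hnf4a probes were all higher in fasted controls than in newborn wild types, by 0.70, 1.76 and 1.63, and the dimmer ones gave 0.11 and -0.10 in fed controls, where they were not well above background.

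**Figure D4:**
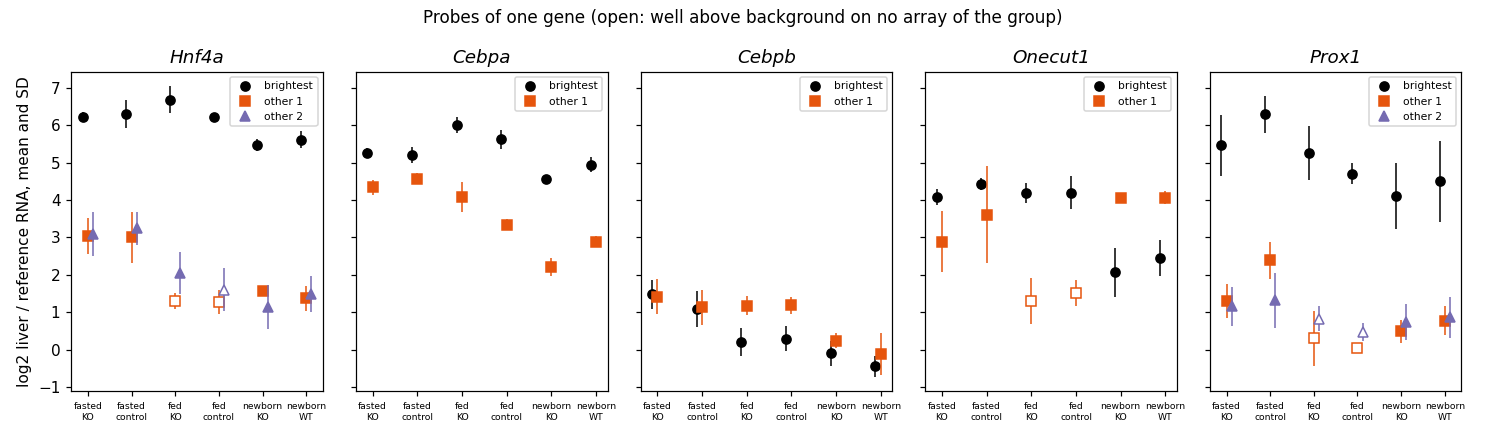
The mean log2 ratio of liver over reference with its SD is drawn for each probe of the 5 factors that have more than 1, by group; black circles are the brightest probe and open symbols mark groups in which no array was well above background. The orange squares of Onecut1 lie above the circles in newborns and below them in adults.

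Among the members, the pattern over the 6 groups was compared as the root mean square difference between group means after each gene's own mean was taken off. Foxa1 is left out, since it was well above background on every array in only 2 of the 6 groups. Hnf4a and Cebpa were the nearest pair, at 0.186, followed by Onecut1 and Nr5a2 at 0.265. For Hnf4a and Cebpa the reference channel was also 1.74 and 1.57 higher on fasted than on fed control arrays. It was 1.46 and 1.05 higher on fasted control than on newborn wild-type arrays. The part of this in their likeness was not tested. The second Cebpa probe averaged 4.57 in fasted and 3.34 in fed controls, against 5.20 and 5.62 for the brightest. Foxa3 stood furthest from the others, and its distances to Onecut1 and Nr5a2 were 1.16 and 1.21. Among 12431 genes measured well on every array of at least 3 groups, the nearest to Hnf4a was Tpgs2 at 0.0692, to Foxa2 Foxn3 at 0.0543, to Cebpa Cd99l2 at 0.0564, to Onecut1 Tlcd2 at 0.0545 and to Prox1 Hs3st3b1 at 0.081. The nearest to Foxa3 was Adgrl4 at 0.0877, to Nr5a2 Igfals at 0.129 and to Cebpb Cox18 at 0.135. The median distance of all these genes lay between 0.529 for Hnf4a and 1.11 for Nr5a2. With 6 group means per gene, these distances describe likeness and carry no test.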

How the data were processed

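Liver RNA (Cy3) and a common Stratagene mouse reference RNA (Cy5) were hybridised on 22 Agilent arrays, with no dye swap, per the labels. Per the file headers, the scans were read with Feature Extraction 10.5.1.1, while the submitters' processing notes name 8.5.1.1. The deposited files hold median spot intensity and local background intensity per channel, and a log10 ratio of reference over liver by the authors, which served as an alternative. The table of all samples equals the array files (largest difference 0). Adult files hold no gene names, so names and mm9 positions came from the newborn files by probe. Symbols of 32831 probes were updated through RefSeq (assembly GRCm38.p6), used for names and promoters only.

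Local backgrounds that the software marked as outliers were set to the median background of their array. Then normexp (offset 50) and loess within arrays gave log2 ratios, turned to liver over reference. Spots marked as non-uniform or population outliers were left out, and spots of a probe were averaged. The brightest probe stood for a gene. Genes well above background on at least 4 newborn, 3 adult or 3 of all arrays were tested two-sided by lmFit and eBayes of limma 3.58.1 (R 4.3.3) with Benjamini-Hochberg adjustment over all genes, at 0.05. Newborns and adults were fitted apart, and comparisons across ages used all 22 arrays. The number of arrays limits the precision. The fit was tested on simulated data. Figures were drawn with matplotlib 3.10.9 under Python 3.11.15.

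The members, gene lists and naming rule were chosen with earlier results of these data known. The rule named every member, Tcf7l2, up to 4 called genes per list, direction and comparison by smallest adjusted p, and the genes with the nearest patterns. Alternatives covered backgrounds, scaling, channels, filters, probes, weights, blocks and arrays left out.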

Additional observations from a re-analysis of the deposited data

Results flagged for a closer look

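In 36 combinations of a member with a group of 4 arrays, 4 held an array whose gap to its neighbour was large for the range of the group by Dixon's test, and chance flags about 1 in 20 groups. Hnf4a was 5.25 in newborn knockout 1, below the other 3 newborn knockouts. Hnf4a was 5.96 in newborn wild type 2, above the other 3 newborn wild types. Nr5a2 was 3.55 in newborn wild type 1, below the other 3 newborn wild types, and this array also lay apart over all genes. Nr5a2 was 4.96 in fasted control 1, below the other 3 fasted controls.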

How the results depend on the processing

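Over 2108 single-member results under other settings, 1852 kept their direction and side of the threshold, 150 changed sign without any call, 58 lost a call, 29 gained one and 19 reversed. The cause was not tested for these. With the outlying backgrounds kept, the count of members called, Foxa1 included, was 1 of 9 for fasting in controls (22.3% of all genes), 1 for fasting in knockouts (19.5%), 1 for fasted controls against newborn wild types (29.7%) and 5 for fed controls against newborn wild types (45.6%). With the deposited log ratio it was 1 for newborn knockouts (2.49%) and 5 for fasted controls against newborn wild types (58.3%). With array weights it was 1 for newborn knockouts (4.78%) and 1 for the knockout difference of fed adults against that of newborns (1.8%), with all probes 5 for fasting in knockouts (35.6% of probes) and 1 for that same difference of differences (0.705%), and with median centring 3 for fed controls against newborn wild types (60.5%). Chosen after seeing the data, arrays scaled to a common spread gave 2 for newborn knockouts (3.53%), 5 for fasting in knockouts (36.2%) and 5 for fasted controls against newborn wild types (55.5%), and leaving out the 3 newborn arrays apart gave 1 for newborn knockouts (0.474%); leaving out fasted knockouts 2 and 3 was also added then. Leaving out 1 array at a time gave 0 to 1 for newborn knockouts, 0 to 0 for fasted and for fed knockouts, 2 to 4 for fasting in controls, 3 to 4 for fasting in knockouts, 8 to 9 for fasted and 6 to 8 for fed controls against newborn wild types, and 0 to 1 for the fed difference of differences.

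Reversed values for fasting in controls were -0.90 for Prox1 with backgrounds kept, -1.17 for Hnf4a with the deposited log ratio, and 0.01 (median centring), 1.23 (liver channel alone) and 0.39 (scaled arrays) for Cebpa. For fasting in knockouts they were 1.1 for Hnf4a and 0.95 for Cebpa (liver channel alone), and 0.37 for Cebpa and 0.69 for Onecut1 (scaled arrays). For fasted controls against newborn wild types they were -0.13 for Hnf4a (deposited log ratio), and -1.05 for Hnf4a, -0.23 for Foxa2 and -1.27 for Cebpa (scaled arrays). For fed controls against newborn wild types they were 0.00 for Cebpa (median centring), and -1.38 for Foxa2, -2.0 for Hnf4a, -1.66 for Cebpa, -1.79 for Prox1 and -0.69 for Nr5a2 (scaled arrays). For Cebpa the knockout difference of fed adults against newborns had adjusted p between 0.0429 and 1.

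Same-numbered newborn knockouts and wild types deviated together with correlations of 0.49, 0.34, 0.39 and -0.23. Same-numbered adult knockouts and controls had correlations between -0.1 and 0.15. These values do not settle whether the numbers pair the newborns. With the replicate block no count of members called moved by over 1.5 times: it was 0 in each knockout comparison, 4 and 3 for fasting, and 8 and 8 for age. On fed arrays low signals limit Foxa1, Foxa3 and the dimmer probes.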
